A study of Bos taurus with 24 samples.

Results

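The genes described here encode RNA polymerases I, II and III, the general transcription factors, Mediator and the elongation factors that travel with the polymerase. They were taken from the deposited table by symbol: every row whose name begins with POLR1, POLR2 or POLR3 and a letter, with TAF or MED and a digit, with GTF2 or GTF3, with TBPL, with TCEA and a digit or with SUPT, and the row of TBP itself. This gave 102 of the 11306 listed genes, each symbol once, on 27 chromosomes of the bovine assembly UMD3.1.1. The RNA came from oocytes of adult, non-lactating and non-pregnant Angus-based crossbred Bos taurus cows, collected by ovum pick-up in May, called spring, or in July, called summer. GV oocytes are immature and arrested in prophase of the first meiotic division with an intact nucleus, the germinal vesicle; MII oocytes had been matured in vitro and are arrested at metaphase of the second division. The 4 groups, spring GV, summer GV, spring MII and summer MII, had 6 libraries each, and every library was a pool of 4 oocytes of 1 animal, stripped of cumulus cells. All came from one herd of 10 cows whose oocytes were divided between the stages, so some cows gave more than 1 library. Which libraries share a cow is not given in the sources used here, and the p-values treat the libraries as independent. The MII oocytes had matured in culture with follicle stimulating hormone and serum in both seasons, so they are no direct sample of maturation in the cow.

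RNA polymerase II makes messenger RNA, polymerase I makes the large ribosomal RNAs, and polymerase III makes transfer RNAs and other short RNAs. At a polymerase II promoter, TBP and the TAF proteins form TFIID, which binds near the start site; TFIIA, TFIIB, TFIIE, TFIIF and TFIIH then position the enzyme and open the DNA, while Mediator links it to activators and SUPT and TCEA proteins help it move through chromatin. The fully grown oocyte has largely stopped transcription, stays silent through meiotic maturation and lives on stored transcripts until the embryonic genome is switched on, so the transcripts described here are stores of machinery that the cell is not known to be using.

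Levels were deposited as FPKM, fragments normalised to gene length and library size, scaled by the authors to one total in each library. Every value minus 0.01, multiplied by the listed distance from the start to the stop of the gene, was a whole multiple of 1 step per library to within 0.1 of a step in 98.3% of 233679 values, where 20% would fall that close by chance. The deposited values had therefore been divided by the genomic extent of the gene, introns included, and not by the length of its exons, and counts per gene could be recovered. They summed to between 324653 and 28207687 per library, with a median of 3836571. A long gene is thus listed low: the extents of the members ran from 1.25 to 404 kb with 1 exception, and their mean FPKM fell with extent (Spearman correlation of -0.55 across the 102 members, a description) whereas their mean CPM, the recovered counts scaled to one library total, did not (-0.09). The exception was POLR2K, an RNA polymerase subunit, whose listed extent on chromosome 14, from 23735735 to 66415861, spans 42680126 bases. It was listed at only 0.0111 to 0.0143 FPKM in all 24 libraries although 54 to 8676 counts lay behind these values. For this reason no level is compared between genes below, and changes are given on the FPKM scale and, where the level is low, on the scale of the recovered counts too.

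The main fit used limma on log2(FPKM + 1) with all libraries. It covered the 9526 genes over 0.1 FPKM in at least 1 library, of which 97 were members. The members that did not pass were POLR2K, TAF4B, SUPT3H, GTF2IRD2 and MED12L, with extents of 47.4 kb or more. The criteria of the methods were kept. A call needed a fold change over 2 and a p under 0.05 before adjustment, and the Benjamini-Hochberg adjusted p over all genes tested is given beside it. In 9 members, among them GTF3A, MED25, POLR2B, POLR2C, POLR3C, TAF6, TAF6L and TAF9, some recovered counts were not whole, as when reads are shared between genes, and their values are uncertain. The library kit keeps no strand, so reads from an overlapping antisense gene cannot be told apart.

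The libraries spring GV 6, summer GV 2 and spring MII 6, which have the lowest share of mapped reads in the study's quality table, stood apart from their groups in many members, and the totals on the FPKM scale are also given without them. The 11 listed of 13 oocyte markers summed to between 660 and 2311 FPKM per library, but not each was high. KIT had group medians of 0.25 to 0.443 and DAZL of 0.534 to 1.56. Because of the division by extent, the sums can be compared between groups but not between marker lists. The 15 listed of 16 markers of cumulus and granulosa cells summed to 20.7 to 53.3 FPKM in spring GV, 21.2 to 69.8 in summer GV, 16.4 to 46.0 in spring MII and 11.6 to 50.3 in summer MII, most of it STAR. The median of FSHR, the receptor for follicle stimulating hormone, was at the lowest value, 0.01, in every group, while AMH reached 13.4 and CYP11A1 12 in single spring GV libraries, and HAS2 had medians of 0.277 and 0.351 in spring and summer GV and of 1.45 and 1.77 in MII. The 4 listed of 6 leukocyte markers summed to at most 1.61. The part of the lower cumulus and leukocyte sums of MII libraries in the differences between stages was not tested. Because every library was scaled to one total, less RNA per oocyte and fewer oocytes in a pool cannot be told apart. A level is a share of the library's total of counts divided by extent, and not of its RNA. Whether messenger RNA was captured equally well from both stages was not tested.

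On the FPKM + 1 scale, POLR2G and POLR2I fell furthest from GV to MII in both seasons. MED11, GTF2H5, GTF2H2 and POLR1E were also called lower, and TBPL1, MED4, TAF1A, SUPT20H and GTF2A1 were called higher. This scale holds back members listed at low levels. In CPM, the median of MED11 fell by a larger factor than that of POLR2G, from 22.6 to 0.595 against 875 to 53.7 in spring. The spring MII median of MED11 was 1.5 recovered counts. In spring, 15 of the 97 members were called lower in MII, or 15.5%, where 8.25% of all genes tested were; 6 members, or 6.19%, were called higher, where 3.57% of all genes were. In summer, 21 members, or 21.6%, were called lower, against 9.26% of all genes, and 5, or 5.15%, higher, against 2.2%. At an adjusted p under 0.05 with no minimum fold change, 37 members differed between the stages in spring and 34 in summer, or 38.1% and 35.1%, where 24.2% and 30.7% of all genes did. Without the 3 libraries these numbers were 56 and 46, or 57.7% and 47.4%, where 41.9% and 39.3% of all genes passed. The median log2 fold change over the members was 0.01 in spring and -0.04 in summer and -0.03 and -0.02 over all genes. Other scalings kept the direction of each call but moved the split. With quantile normalization 9 members were called higher and 14 lower in spring, where 5.85% and 6.8% of all genes were, and 10 and 16 in summer, where 5.19% and 7.05% were. With median-of-ratios scaling 3 and 22 were called in spring, against 1.97% and 10.1% of all genes, and 4 and 21 in summer, against 1.77% and 9.77%. With a pseudocount of 0.1 FPKM 17 and 24 were called in spring, against 10.1% and 17.5% of all genes, and 8 and 26 in summer, against 5.84% and 20.6%. The 6 libraries of each stage did not overlap in 19 members in spring and in 23 in summer, or 19.6% and 23.7%, where 13.6% and 17.7% of all genes did not. Without the 3 libraries 35 members did not overlap in each season, or 36.1%, where 27.9% and 25.1% of all genes did not.

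The seasonal comparisons of stage share no library, but they may share cows. The share of all genes called in both seasons was not worked out, so the overlap is not a result about the members. All 15 members called lower in spring were also called lower in summer, which is 71.4% of the summer list. Among them were POLR1E, POLR2E, POLR2G, POLR2I, POLR2L, POLR2M, TAF1C, GTF2F1, GTF2H2, GTF2H5, MED11, MED18, MED22 and MED31. The 6 called in summer alone were POLR2D, POLR2F, POLR3C, POLR3D, TAF10 and MED7. The 5 members called higher in both seasons were TBPL1, TAF1A, GTF2A1, SUPT20H and MED4, which is 83.3% of the spring list, and TAF7 was called in spring alone. Without the 3 libraries with the lowest share of mapped reads, 24 members were called in spring, 20 of them among the 21 above, and 25 in summer, 24 of them among the 26. Of these, 6 were higher and 18 lower in spring, where 4.02% and 8.87% of all genes were, and 6 and 19 in summer, where 3.52% and 9.03% were. No count of a class or complex in one direction moved by more than 1.

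**Figure D1:**
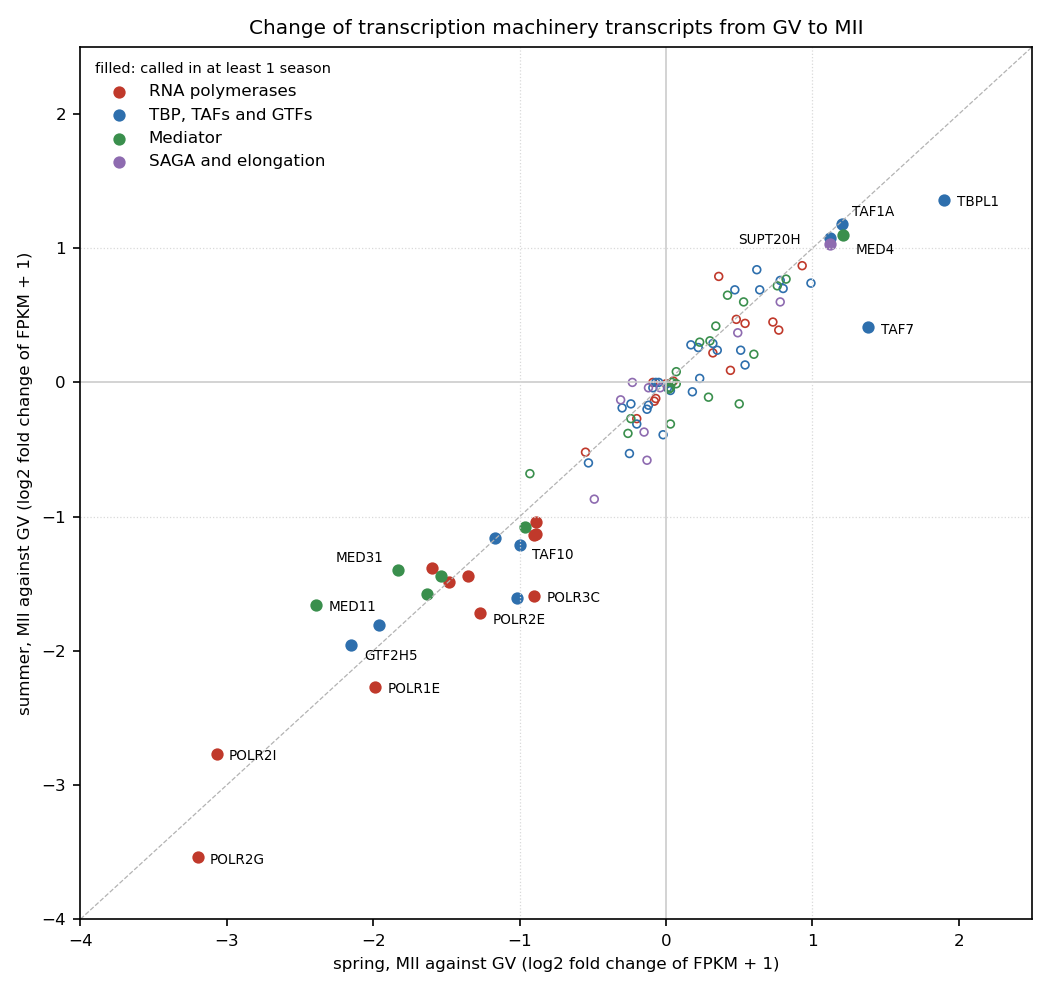
Each point is 1 of the 97 tested members, with its log2 fold change of FPKM + 1 from GV to MII in spring on the x axis and in summer on the y axis. Filled points were called in at least 1 season, dotted lines mark a fold change of 2 and the dashed line equal change. POLR2G and POLR2I sit at the lower left with changes of -3.20 and -3.07 in spring, TBPL1 at the upper right with 1.90, and TAF7 lies below the dashed line with 1.38 in spring and 0.41 in summer.

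Among the subunits of RNA polymerase II, several small or peripheral ones fell and POLR2A, the catalytic subunit, was not called. Of the 12 tested, the main fit called 5 lower in spring and 7 in summer, and none higher. The median log2 fold change was -0.89 and -1.08. Quantile normalization called POLR2H higher in spring. A pseudocount of 0.1 and voom on recovered counts, described further on, called POLR2B higher in spring. By voom the change from GV to MII rose with gene extent over all genes (Spearman correlation of 0.33 in spring and 0.29 in summer). Over the members it was 0.35 and 0.32. Members called lower in both seasons had a median extent of 5.97 kb, and those called higher 33.7 kb. The part of extent in the split between subunits was not tested. POLR2G, on chromosome 29 from 41777025 to 41780285, encodes RPB7, which with RPB4 forms a stalk on the enzyme. Its level ran from 28.8 to 142 FPKM in spring GV, with a median of 107, and from 6.43 to 13.9 in spring MII, with a median of 8.19. In summer it ran from 63.8 to 137 in GV, with a median of 123, and from 5.24 to 14.9 in MII, with a median of 8.05. No MII library reached the lowest GV library in either season. The log2 fold change was -3.20 ± 0.36 (SE) in spring and -3.54 ± 0.27 in summer, with adjusted p of 0.000115 and 5.52e-06, and the exact two-sided permutation p was 0.00216 in each season, the smallest that 6 against 6 libraries can give.

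POLR2I, on chromosome 18 from 46961969 to 46963215, encodes RPB9, a subunit with a role in proofreading. It was at 81.7 to 157 FPKM in spring GV and 98.4 to 170 in summer GV, with medians of 117 and 123. In MII it was at 7.28 to 21.2 in spring and 12.4 to 28.6 in summer, with medians of 13.6 and 17.2. The stages did not overlap, and the log2 fold change was -3.07 ± 0.25 and -2.77 ± 0.23. POLR2D, which encodes RPB4, the partner of POLR2G in the stalk, had medians of 6.92 in spring GV and 3.11 in spring MII, and of 8.49 and 2.76 in summer. Its stages overlapped, and its log2 fold change was -0.89 ± 0.43 in spring (adjusted p = 0.144) and -1.13 ± 0.37 in summer (adjusted p = 0.0347). Without the 3 libraries POLR2D was called lower in spring too, with -1.03 ± 0.15 (adjusted p = 0.000707 by limma).

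Subunits that polymerase II shares with polymerases I and III went different ways. POLR2E (RPB5) fell from a median of 16.5 to 5.78 FPKM in spring and from 16.9 to 7.23 in summer. POLR2L (RPB10) fell from 20.2 to 5.90 and from 25.9 to 9.16. POLR2F (RPB6) had log2 fold changes of -0.89 ± 0.33 in spring, with an adjusted p of 0.062, and of -1.04 ± 0.17 in summer. POLR2H (RPB8) had values of the other sign, with medians of 28.8 and 46.7 in spring and 35.3 and 48.2 in summer and log2 fold changes of 0.77 ± 0.25 and 0.39 ± 0.25. POLR2K (RPB12), which the filter on FPKM leaves out, had a median of 950.5 recovered counts in spring GV and 779.5 in spring MII, and on the CPM scale its log2 fold change was -0.44 in spring and 0.02 in summer.

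POLR2M, listed with these subunits by name, encodes GDOWN1, which binds the enzyme and makes its response to activators depend on Mediator. It ran from 2.28 to 5.93 FPKM in spring GV and from 0.279 to 1 in spring MII, and from 1.76 to 6.72 and 0.132 to 0.810 in summer, without overlap. The log2 fold change was -1.35 ± 0.21 in spring and -1.44 ± 0.23 in summer. The 2 largest subunits had values of the other sign. POLR2A, the catalytic subunit whose tail of repeats carries the phosphorylation marks of the transcription cycle, had medians of 0.176 and 0.377 in spring and 0.287 and 0.466 in summer. Its ranges overlapped between stages, and its log2 fold change was 0.32 ± 0.24 and 0.22 ± 0.22, with adjusted p of 0.335 and 0.458. POLR2B, the second largest subunit, had medians of 0.401 and 1.20 in spring and 0.658 and 1.34 in summer, a log2 fold change of 0.54 ± 0.15 in spring, with an adjusted p of 0.0234, and of 0.44 ± 0.17 in summer, with an adjusted p of 0.0705. POLR2C had log2 fold changes of 0.73 and 0.45 and POLR2J of 0.36 and 0.79, with adjusted p of 0.0595 or more.

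**Figure D2:**
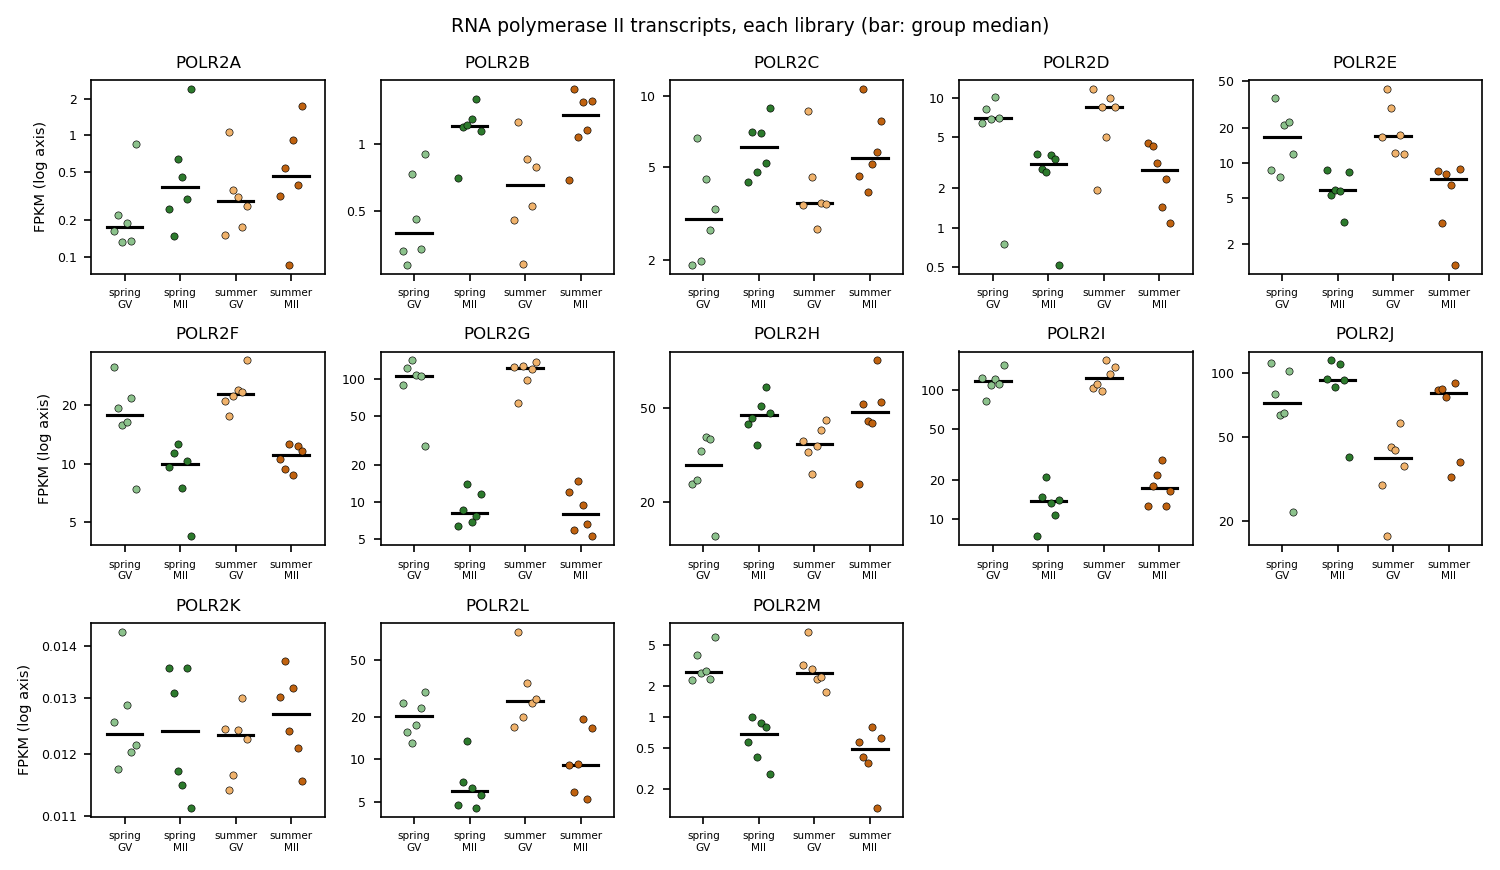
Each panel shows 1 RNA polymerase II gene, with FPKM on a log axis, 6 libraries per group as points and the group median as a bar. POLR2G and POLR2I fall furthest from GV to MII in both seasons, POLR2E, POLR2L and POLR2M fall by less, the stages of POLR2A and POLR2H overlap, and POLR2K is listed near 0.012 in every group because its listed extent is 42680126 bases.

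RNA polymerase I and III showed the same mixture. POLR1E, on chromosome 8 from 61998303 to 62014123, encodes a subunit of the pair that helps polymerase I start and move. It had medians of 11.9 FPKM in spring GV and 2.04 in spring MII, and of 12.4 and 1.83 in summer. The GV libraries ran from 7.60 to 16.4 and the MII libraries from 1.11 to 3.04 over both seasons, and the log2 fold change was -1.99 ± 0.23 in spring and -2.27 ± 0.19 in summer. POLR1D, a subunit that polymerases I and III share, had log2 fold changes of -0.55 ± 0.29 and -0.52 ± 0.23, with adjusted p of 0.178 and 0.102. POLR1B, the second largest subunit of polymerase I, had 0.48 ± 0.33 and 0.47 ± 0.29. In polymerase III the main fit called none of 9 members higher. Voom on recovered counts called POLR3B and POLR3G higher in spring, with log2 fold changes of 1.03 and 1.19. A pseudocount of 0.1 also called POLR3G higher in spring. POLR3C, a subunit with a part in starting transcription, fell in summer from 3.19 to 0.491 with a log2 fold change of -1.59 ± 0.35, and had -0.90 ± 0.27 in spring. POLR3D had -0.90 ± 0.32 and -1.14 ± 0.49, with adjusted p of 0.0561 and 0.097, and its summer call was lost when any 1 of 7 libraries was left out (summer GV 2, 3 or 4, summer MII 1, 2, 3 or 5), with -0.77 at the weakest. POLR3K, a subunit with a role in ending transcription, had medians of 125 and 223 in spring and 107 and 195 in summer, with log2 fold changes of 0.93 ± 0.39 and 0.87 ± 0.36 and adjusted p of 0.0933 and 0.0801.

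On the FPKM + 1 scale TBPL1 had the largest increase of the 97 members in spring and in summer. It encodes TRF2, a relative of TBP that does not bind the TATA box and is known for its need in the male germ line; it lies on chromosome 9 from 73110668 to 73149532. It ran from 3.06 to 8.81 FPKM in spring GV, with a median of 5.87, and from 14.6 to 29.5 in spring MII, with a median of 24.6. In summer it ran from 6.15 to 10.1 in GV, with a median of 6.40, and from 15 to 35.1 in MII, with a median of 17.0. Every MII library was above every GV library, and the log2 fold change was 1.90 ± 0.25 in spring and 1.36 ± 0.23 in summer, with adjusted p of 0.000304 and 0.000722. TBP itself had medians of 2.28 and 2.44 in spring and of 1.77 and 3.54 in summer, with wide ranges, 1.75 to 12.2 in spring MII and 1.45 to 11.3 in summer MII. Its log2 fold change was 0.47 ± 0.38 and 0.69 ± 0.47, with 95% intervals from -0.36 to 1.30 and from -0.32 to 1.71. TBPL2, the TBP relative of the growing oocyte, is not among the listed genes and was not analysed here.

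TFIID TAFs were mixed. TAF7, a TFIID subunit with a TAF1-binding role, on chromosome 7 from 54080963 to 54083195, ran from 8.41 to 24 FPKM in spring GV and from 24.1 to 62.5 in spring MII, so that the highest GV value lay just under the lowest MII value. In summer it ran from 12.7 to 32 and from 14.4 to 40.5. The log2 fold change was 1.38 ± 0.29 in spring, with an adjusted p of 0.00534, and 0.41 ± 0.27 in summer, with an adjusted p of 0.272. TAF10, a subunit of both TFIID and SAGA, had medians of 255 and 111 in spring and 196 and 81.1 in summer, with log2 fold changes of -1 ± 0.31 and -1.21 ± 0.26; it was called in summer, and in spring without the 3 libraries (-1.18 ± 0.17) and by voom on recovered counts (-1.37). TAF5 and TAF11 reached an adjusted p under 0.05 in spring, with log2 fold changes of 0.99 ± 0.32 and 0.51 ± 0.17, and had 0.74 and 0.24 in summer with adjusted p of 0.0627 and 0.266. Without the 3 libraries TAF5 was called higher in spring (1.14 ± 0.21) and had 0.95 ± 0.22 in summer. The paralogs TAF9 and TAF9B had medians in spring GV and MII of 33.6 and 34.3 and of 0.681 and 0.489, and log2 fold changes between -0.39 and -0.02 in both seasons.

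The SL1 TAFs, which serve polymerase I, split within their complex. TAF1A rose from a median of 2.02 to 7.47 FPKM in spring and from 2.52 to 7.61 in summer, with log2 fold changes of 1.20 ± 0.28 and 1.18 ± 0.30. Without summer MII 2 its summer call was lost (0.95). TAF1C fell from 1.72 to 0.222 and from 2 to 0.211, with log2 fold changes of -1.17 ± 0.22 and -1.16 ± 0.38; its summer call was lost without summer GV 2, the library that held the highest GV value (-0.84). TAF1B had 0.54 ± 0.17 in spring (adjusted p = 0.0337) and 0.13 ± 0.16 in summer, and TAF1D -0.30 and -0.19.

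**Figure D3:**
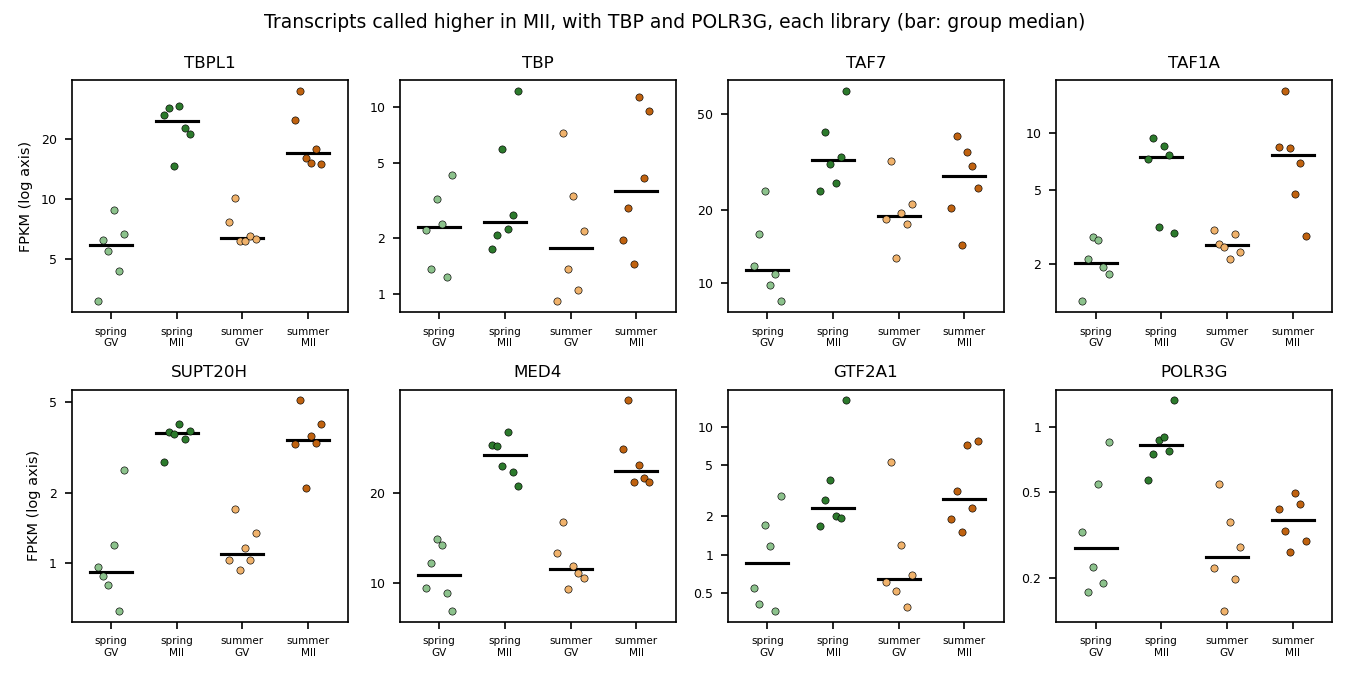
The panels show FPKM on a log axis for the 6 members called higher in MII, with TBP and POLR3G beside them; points are libraries and bars group medians. The GV and MII points of TBPL1, SUPT20H and MED4 do not overlap in either season, TAF7 separates the stages in spring alone, and POLR3G is higher in spring MII than in summer MII without overlap.

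Among the factors that build the preinitiation complex, the main fit called GTF2A1 higher and GTF2F1 and 2 TFIIH subunits lower. GTF2A1, the large subunit of TFIIA, which stabilises TBP on DNA, ran from 0.363 to 2.89 FPKM in spring GV and 1.68 to 16.1 in spring MII, and from 0.390 to 5.32 and 1.51 to 7.68 in summer. The stages overlapped, the log2 fold change was 1.12 ± 0.44 and 1.08 ± 0.42, and the adjusted p of 0.0783 and 0.07 missed 0.05. Its call was lost without spring GV 2 or 5 or spring MII 6 in spring, with 0.73 at the weakest, and without summer GV 3 or 5 or summer MII 4 or 6 in summer, with 0.89 at the weakest. GTF2A2, the small subunit, had 0.62 ± 0.24 and 0.84 ± 0.17, and its summer libraries did not overlap, at 6.35 to 8.92 in GV and 11.3 to 20.8 in MII. GTF2A1L, a germ cell relative of GTF2A1, had -0.25 ± 0.22 and -0.53 ± 0.21. GTF2B, the factor that positions the start site, had medians of 10.7 and 20.5 in spring and 11.5 and 19.0 in summer and log2 fold changes of 0.80 ± 0.27 and 0.70 ± 0.27, with adjusted p of 0.043 and 0.0647.

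GTF2F1, the large subunit of TFIIF, fell from a median of 13.0 to 6.41 FPKM in spring and from 15.3 to 4.83 in summer. The spring log2 fold change of -1.02 ± 0.31 lay at the fold threshold, and its call was lost without any 1 of 5 libraries (spring GV 2 or 5, spring MII 1, 2 or 5), with -0.86 at the weakest; the summer change was -1.61 ± 0.38 and the libraries did not overlap. GTF2F2, its partner, had 0.22 ± 0.14 and 0.26 ± 0.13. In TFIIH, the helicase and repair factor, GTF2H5 on chromosome 9 from 96153562 to 96167614, its smallest subunit, ran from 5.30 to 16.6 in the GV libraries and from 0.854 to 2.44 in the MII libraries of both seasons. Its log2 fold change was -2.15 ± 0.25 and -1.96 ± 0.21. GTF2H2 fell from a median of 10.4 to 1.51 in spring and from 10.5 to 1.64 in summer, with -1.96 ± 0.38 and -1.81 ± 0.40. The other core subunits GTF2H1, GTF2H3 and GTF2H4 had log2 fold changes between -0.07 and 0.69, with adjusted p of 0.0534 or more. GTF2H3, listed low, had medians of 14.3 and 57.3 CPM in spring and 19.5 and 49.2 in summer. It was called higher by voom in spring and with a pseudocount of 0.1 in both seasons. Without the 3 libraries it had 0.76 ± 0.20 in spring and 0.62 ± 0.32 in summer, with adjusted p by limma of 0.0125 and 0.145. None of the 2 tested TFII-I family genes and none of the 4 TFIIIA and TFIIIC genes was called between stages in the main fit. With a pseudocount of 0.1, GTF3C5 was called lower in both seasons. Voom also called GTF3C5 lower in both seasons, and GTF2IRD1 and GTF3A lower in spring.

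Of the 25 Mediator members tested, 4 were called lower in spring and 5 in summer, and 1, MED4, higher in both. The head module, which contacts the polymerase, held 3 of them in each season. MED11, on chromosome 19 from 27253469 to 27255304, ran from 4.22 to 9.30 FPKM in spring GV and from 0.01, the lowest value of the table, to 0.586 in spring MII. In summer it ran from 0.277 to 4.96 and from 0.01 to 0.842, so that the groups overlapped through the library summer GV 2. Its log2 fold change was -2.39 ± 0.20 and -1.66 ± 0.33, and -1.97 ± 0.20 in summer without the 3 libraries. MED22 fell from a median of 2.77 to 0.286 and from 2.34 to 0.381, and MED18 from 13.6 to 4.40 and from 10.1 to 4.77; neither overlapped. MED30, in the same module, had medians of 1.17 and 2.51 in spring and 1.08 and 2.64 in summer, with log2 fold changes of 0.76 ± 0.16 and 0.72 ± 0.17 and adjusted p of 0.00477 and 0.00715, under the fold threshold.

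In the middle module, MED4 and MED31 moved apart. MED4 ran from 8.02 to 14 FPKM in spring GV and 21.1 to 32.2 in spring MII, and from 9.53 to 15.9 and 21.7 to 41.1 in summer, without overlap. Its log2 fold change was 1.21 ± 0.20 and 1.10 ± 0.19. MED31 ran from 11.9 to 19.1 and 1.49 to 8.38 in spring and from 8.25 to 21.2 and 3.14 to 7.78 in summer, also without overlap, with -1.83 ± 0.31 and -1.40 ± 0.27. MED7, which pairs with MED31 and MED21, had -0.96 ± 0.21 and -1.08 ± 0.19, and MED21 0.42 ± 0.31 and 0.65 ± 0.27. Without the 3 libraries MED7 was called lower in spring too (-1.04 ± 0.17). None of the 6 tail and scaffold members was called in the main fit. MED14, the backbone subunit, had log2 fold changes of 0.82 ± 0.35 and 0.77 ± 0.35. It was called in summer without the 3 libraries (1.02 ± 0.29) and in both seasons by voom (1.17 and 1.12). A pseudocount of 0.1 also called MED14 higher in both seasons, and quantile normalization did so in summer. MED29 had 0.07 and -0.01. Of the kinase module, MED12 had a median of 0.0441 in spring GV and 0.055 in spring MII, with 0 to 98 recovered counts per library over all groups, and MED13L 0.0347 and 0.0655; both had log2 fold changes between -0.05 and 0.04. At these levels the FPKM + 1 scale leaves little room for a change. MED12L was at or under 0.0337 in all libraries. MED13, the partner of MED12 in this module, is not among the listed genes and was not analysed here.

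SUPT20H, a subunit of the SAGA histone acetyltransferase complex on chromosome 12 from 24668873 to 24708289, rose. It ran from 0.616 to 2.52 FPKM in spring GV and from 2.75 to 3.99 in spring MII, and from 0.928 to 1.72 and 2.11 to 5.07 in summer. The stages did not overlap, and the log2 fold change was 1.12 ± 0.20 and 1.03 ± 0.17. None of the 7 members that act in elongation or as histone chaperones was called between the stages in the main fit. With a pseudocount of 0.1, SUPT16H and TCEA1 were called higher and TCEA2 lower in spring, and SUPT6H lower in summer. By voom SUPT6H and TCEA3 were called lower in both seasons, TCEA2 lower in spring, SUPT5H lower in summer and SUPT16H higher in spring. SUPT5H, the large subunit of the pausing factor DSIF, had -0.13 ± 0.18 and -0.58 ± 0.22. SUPT16H, a subunit of the histone chaperone FACT, had 0.49 ± 0.22 and 0.37 ± 0.18. TCEA1, the TFIIS protein that rescues a stalled polymerase, had medians of 2.25 and 4.71 in spring and of 2.11 and 4.24 in summer. Its log2 fold change was 0.78 ± 0.24 (adjusted p = 0.0291 by limma) and 0.60 ± 0.29 (adjusted p = 0.132). Without the 3 libraries it was 0.87 ± 0.14 (adjusted p = 0.0013) and 0.85 ± 0.19 (adjusted p = 0.00402). TCEA2 had -0.31 ± 0.09 (adjusted p = 0.0216) and -0.13 ± 0.05. SUPT4H1, the small DSIF subunit, had at most 23 recovered counts in any library, and POLR3F at most 39.

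Adding 1 to FPKM holds back the change of members listed at low levels, so the stages were also compared with voom on the recovered counts, for 96 members and 8668 genes in all with at least 10 counts in at least 6 libraries. On this scale the median of all genes moved by -0.27 in spring and -0.44 in summer, and changes are to be read against these. Called lower were 35 members in spring and 32 in summer, where 32% and 35.3% of all genes were; called higher were 12 and 5, where 11.6% and 6.52% of all genes were. The numbers called lower thus stood near the background, 36.5% and 33.3% of the members, and the median over the members was -0.24 in spring and -0.54 in summer. Of these members 30 were called lower in both seasons, and the share of all genes called so was not worked out. Each of the 47 calls on the FPKM scale kept its direction. Large polymerase subunits went both ways. POLR1A, the catalytic subunit of polymerase I, had medians of 16 CPM in spring GV and 3.68 in spring MII, and 22.8 and 2.54 in summer. Its log2 fold change was -2.19 and -3.39 on counts but -0.08 and -0.14 on FPKM + 1. POLR3A, the catalytic subunit of polymerase III, had 28.3 and 7.44 CPM in spring and 27.6 and 7 in summer, or -1.76 and -2.21. MED27, with an extent of 219.2 kb, had medians of 190 and 60.6 CPM in spring and 180 and 56.3 in summer, without overlap in FPKM, or -1.54 and -1.74. POLR2A, the catalytic subunit of polymerase II, had 12.1 and 21.1 in spring and 18.6 and 25.0 in summer, or 0.80 and 0.43, and was not called. POLR2B and POLR3B, the second largest subunits of polymerases II and III, were called higher in spring, with 1.13 and 1.03.

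**Figure D4:**
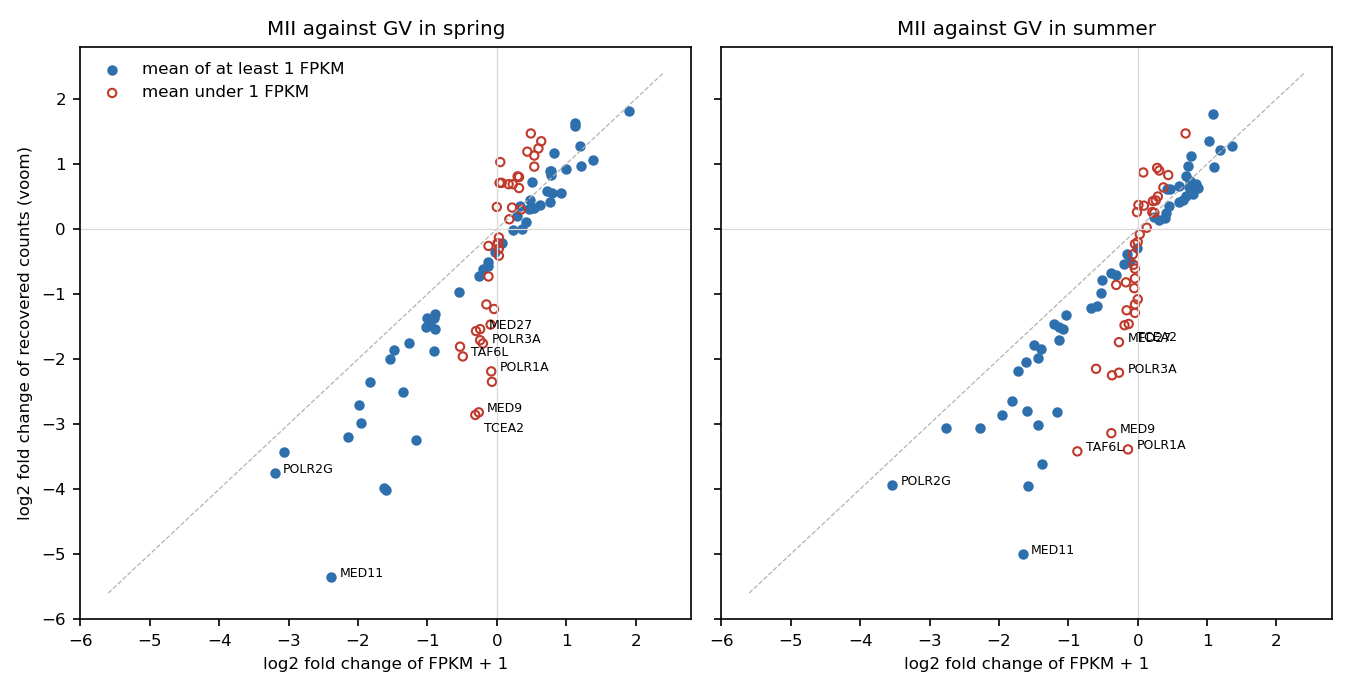
Each point is 1 member, with the log2 fold change from GV to MII of FPKM + 1 on the x axis and of the recovered counts on the y axis, in spring on the left and in summer on the right; the dashed line marks equal change. Open points, members with a mean under 1 FPKM, lie in a near-vertical band around 0 on the x axis, as POLR1A does with -0.14 and -3.39 in summer, while POLR2G has -3.54 and -3.93.

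Partners of these proteins were looked at as a list of 65 listed genes (kinases and phosphatases of the POLR2A tail, pausing and elongation factors, assembly factors, polymerase I and III factors, TBP regulators and mitochondrial transcription), of which 64 were tested. In spring 4 were called higher and 4 lower, or 6.25% each, where 3.57% and 8.25% of all genes were. In summer 3 and 5 were, or 4.69% and 7.81%, against 2.2% and 9.26%. The lower calls thus stood near the background in both seasons, and these counts are not a result about the partners. The medians were 0.03 and 0.01. NELFE, a subunit of the pausing factor NELF, fell from a median of 8.95 to 1.28 FPKM in spring and from 8.61 to 1.45 in summer, with log2 fold changes of -2.09 ± 0.38 and -2.03 ± 0.32. ELOF1, an elongation factor, had -1.29 ± 0.38 and -1.33 ± 0.40, and MAF1, the repressor of polymerase III, -1 ± 0.37 (adjusted p = 0.0661) and -1.50 ± 0.32. RTF1, a subunit of the PAF complex, rose in spring from 1.54 to 5.88, with 1.51 ± 0.26. LARP7, a protein of the 7SK particle that holds the elongation kinase P-TEFb inactive, had medians of 4.16 and 9.53 in spring and 4.70 and 9.46 in summer, with 1.08 ± 0.20 and 0.98 ± 0.16. In the mitochondrial list MTERF3 and TFB2M had positive and TEFM negative changes: TEFM, the elongation factor of the mitochondrial polymerase, had medians of 17.2 and 6.26 in spring and 18.7 and 6.04 in summer.

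Between seasons no member was called in GV oocytes, in MII oocytes or in the season difference of the change from GV to MII, where 0.0315%, 0.042% and 0.21% of all genes were. No member had an adjusted p under 0.05 by limma or by voom in these comparisons. Without a minimum fold change, 3 members had an unadjusted p under 0.05 in GV (3.09%, where 1.55% of all genes did), 1 in MII (1.03% against 2.11%) and 2 in the season difference (2.06% against 1.8%). Without the 3 libraries the numbers were 7, 6 and 2 members, or 7.22%, 6.19% and 2.06%, where 3.63%, 3.17% and 2.9% of all genes passed, and again none was called. The log2 fold changes of all 97 members lay between -0.87 and 0.58 in GV and between -0.46 and 0.53 in MII.

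POLR3G showed the clearest separation of seasons in MII. It encodes the form of an RNA polymerase III subunit that is known from embryonic stem cells, whereas POLR3GL is the form of most adult cells. It lies on chromosome 7 from 92404697 to 92434911. POLR3G ran from 0.568 to 1.33 FPKM in spring MII, with a median of 0.825, and from 0.265 to 0.498 in summer MII, with a median of 0.373; no summer library reached the lowest spring library. In counts these were 62 to 206 and 49 to 123 per library, with medians of 49.8 and 21.9 CPM. The log2 difference, summer minus spring, was -0.43 ± 0.11 on FPKM + 1 and -1.20 on counts, where it was called, with exact permutation p = 0.00216 and an adjusted p of 1 by limma. In GV it had medians of 0.277 and 0.251. Its change from GV to MII was thus 0.44 ± 0.15 in spring and 0.09 ± 0.08 in summer, a season difference of -0.34 (95% interval -0.69 to 0.00, unadjusted p = 0.0471), and -0.31 without the 3 libraries (unadjusted p = 0.0141). POLR3GL was at or under 0.355 in every library. Its medians were 12 counts or 3.24 CPM in spring MII, and 7 counts or 1.71 CPM in summer MII. Without the 3 libraries its difference in MII had the same sign as that of POLR3G, at -0.09 ± 0.03 (unadjusted p = 0.0102 by limma, adjusted p = 0.999).

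The other members under 0.05 were named after their values were seen where the naming rule did not name them. In GV, POLR2J, a subunit of the assembly platform of polymerase II, ran from 22.2 to 111 FPKM in spring, with a median of 71.9, and from 17.0 to 57.7 in summer, with a median of 39.8. The groups overlapped; the log2 difference was -0.87 ± 0.39 and without the 3 libraries -0.97 ± 0.23 (unadjusted p = 0.00142, adjusted p = 1). It was called without spring GV 6 (-1.17), without summer GV 5 (-1) and on the recovered counts (-1.03). SUPT5H ran from 0.812 to 1.96 in spring GV and from 1.51 to 4.51 in summer GV, with 0.49 ± 0.22 and without the 3 libraries 0.37 (unadjusted p = 0.043). MED11 had -0.77 ± 0.34 in GV, and -0.32 without the 3 libraries (unadjusted p = 0.0823), so its value rested on them. The season difference in the change of TAF7 was -0.97 (95% interval -1.81 to -0.14, unadjusted p = 0.0239, adjusted p = 1), with a spring GV median of 11.3 and a summer GV median of 18.9; without the 3 libraries it was -0.56 (unadjusted p = 0.14), and it passed a fold change of 2 when any 1 of 10 other libraries was left out, up to -1.15 without spring GV 3. POLR2G and POLR2I had the largest stage changes on the FPKM + 1 scale. The summer minus spring difference was 0.27 ± 0.36 in GV and -0.06 ± 0.27 in MII for POLR2G. For POLR2I it was 0.12 ± 0.21 and 0.42 ± 0.26. The unadjusted p by limma was 0.136 or more.

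**Figure D5:**
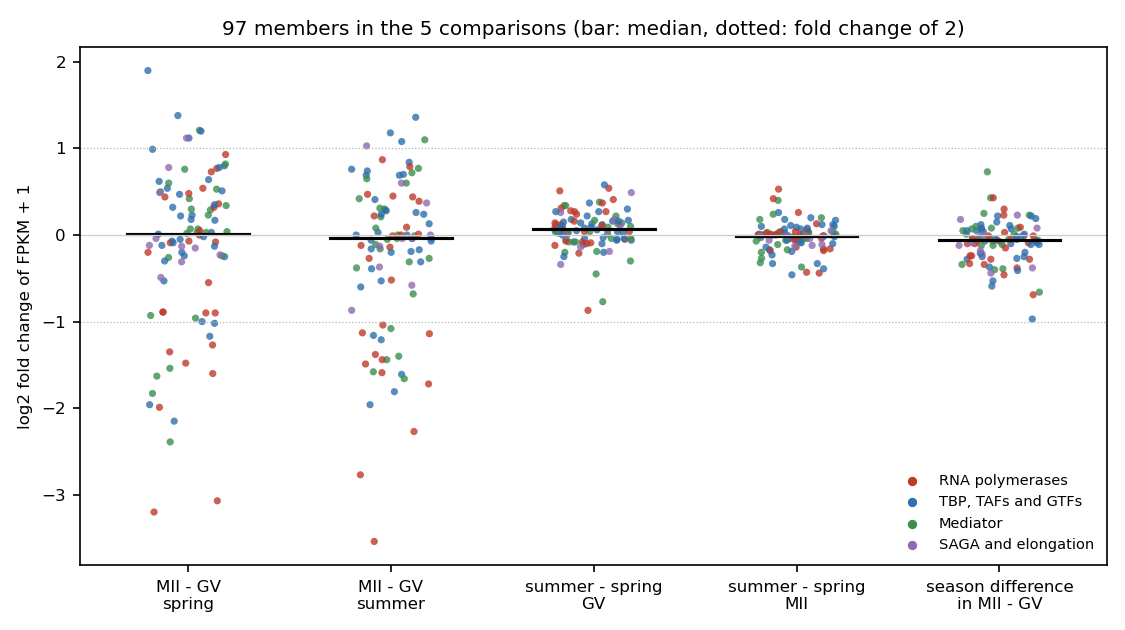
Each point is 1 of the 97 tested members, by family, with its log2 fold change of FPKM + 1 in the 5 comparisons; bars are medians and dotted lines a fold change of 2. In the stage comparisons points reach from -3.54 to 1.90, while no point of the season comparisons or of the season difference passes a dotted line, the farthest being TAF7 at -0.97.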

How the data were processed

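RNA was measured in 24 libraries of oocyte pools, grouped by the cell type and the collection time in the labels. The authors captured messenger RNA with a Smart-seq2 v4 kit, trimmed the reads and aligned them to UMD3.1.1 (UMD3.1 in the labels) with STAR 2.5.3a, and deposited FPKM values for 11306 genes; the methods state FPKM per exon length, but the deposited values fit the genomic extent. All libraries sum to between 86768.1 and 86768.2 and no value is under 0.01. No library pair was identical. Each library was a pool from 1 of 10 cows per the methods, so libraries share cows; whether a replicate number marks 1 cow is not given in the sources used here.

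Genes over 0.1 FPKM in at least 1 library were tested with limma 3.58.1 (trend) in R 4.3.3 on log2(FPKM + 1), 2 groups per fit, or 4 for the season difference; a fold change here is on that scale and understates the change of low genes. Single members also had an exact permutation test over 924 assignments. Counts were recovered in Python 3.11.15 (numpy 2.4.6, pandas 2.3.3) and tested with voom, added after the values were seen; both fits and the recovery were tested on simulated data. Intervals cover the spread between libraries.

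The settings varied were the pseudocount (0.1), the filter (none, or a mean of at least 1 FPKM), the scaling (quantile, median of ratios), a single fit of the 4 groups, the replicate block, adjusted p, no minimum fold change, robust moderation, and leaving out 3 libraries or each library in turn.

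The members and lists were chosen with earlier results of these data known. Members named are 20 listed paralogs and core factors, members called between seasons, the 3 with the smallest p per class, direction and stage comparison, and the highest mean per class; the others (among them POLR2K, POLR1A, POLR3A and MED27) were chosen after their values were seen. No sequences of the members were used here. The values of 1 member are not reported here.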

Additional observations from a re-analysis of the deposited data

Results flagged for a closer look

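The named members were searched for libraries that lay far from the other 5 of their group. Of 180 groups looked at, 31, or 17.2%, held such a library, where chance marks about 1 in 20. Of the 31, 26 lay in the 3 libraries with the lowest share of mapped reads: 13 in summer GV 2, 9 in spring GV 6 and 4 in spring MII 6.

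In summer GV 2, values lay above the rest of the group for GTF2A1 (5.32 FPKM against 0.390 to 1.18), GTF2F1 (39.8 against 11.5 to 18.4), MED18 (24.4 against 9.26 to 13.0), POLR2A (1.07 against 0.151 to 0.357), POLR3D (41.6 against 5.77 to 11.7), TCEA1 (7.52 against 1.72 to 2.28), MED13L (0.135) and TCEA3 (0.148). The same library was below the rest for GTF2H2 (1.97 against 9.29 to 16), MED21 (9.25), MED29 (3.70), MED6 (3.01) and TAF10 (113 against 188 to 232).

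Spring GV 6, whose recovered counts were the fewest, was high for MED11 (9.30 against 4.22 to 5.10), MED18 (37.3 against 8.65 to 14.3), POLR2A (0.851 against 0.133 to 0.220), POLR3C (6.28 against 1.59 to 2.12), POLR3GL (0.355) and SUPT4H1 (2.08). It was low for POLR2G (28.8 against 90.0 to 142), POLR3K (30 against 121 to 153) and TAF10 (84.3 against 212 to 358). Spring MII 6 was high for GTF2A1 (16.1 against 1.68 to 3.84), POLR2A (2.42 against 0.148 to 0.642) and SUPT4H1 (0.57), and low for MED29 (4.95 against 15.6 to 25.3). POLR2A was thus highest in each of these 3 libraries within its group, and POLR2A, MED18, GTF2A1 and SUPT4H1 stood high, and TAF10 and MED29 low, in more than 1 of them. What sets the 3 apart was not tested.

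Elsewhere, single libraries stood out for GTF2H5 in spring MII 3 (2.44 FPKM), MED11 in summer MII 4 (0.842), MED12 in spring GV 3 (0.195), TCEA2 in spring MII 1 (0.267) and TCEA3 in summer MII 6 (0.0524).

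For POLR3G and TAF7 the change from GV to MII differed between the seasons at an unadjusted p under 0.05. The season difference was -0.34 for POLR3G and -0.97 for TAF7 on the log2 scale, with unadjusted p of 0.0471 and 0.0239 in limma and an adjusted p of 1 for each.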

How the results depend on the processing

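The 21 members called between stages in spring became 41 with a pseudocount of 0.1, 47 with voom on recovered counts, 42 with voom and a median-of-ratios library size, and 55 with no minimum fold change; the 26 in summer became 51 with no minimum fold change. The other planned settings kept these counts within 1.5 times, with 20 to 26 in spring and 22 to 25 in summer when each library was left out. Between seasons in GV, where none was called, voom gave 2 (POLR2J and POLR3B), no minimum fold change 3, and leaving out each library 0 to 1. In MII, 1 (POLR3G) was called with a pseudocount of 0.1, with both voom fits and with no minimum fold change, and 0 when each library was left out. In the season difference 1 (TAF7) was called with a pseudocount of 0.1, 2 with no minimum fold change, and 0 to 1 when each library was left out. With the replicate block 21 and 25 members were called between stages and none between seasons. Samples of the same number had correlated deviations in 1 to 4 of 6 pairs per comparison. The best match of a sample bore its own number in 0 of 6 pairs between seasons in GV and in 4 in MII. Between stages this held for 2 in spring and 3 in summer. Whether the numbers mark pairs is not settled by these values, and the main fit did not take them as pairs. Of the 41 named stage values, none reversed and 29 kept their call in every setting run; those lost by 1 library and not given above were SUPT20H in summer (0.94 at the weakest, without summer GV 3, summer MII 2 or summer MII 6), MED4 in summer (0.97 without summer MII 2) and MED7 in summer (-0.99 at the weakest, without summer GV 1 or summer MII 4). Without the 3 libraries GTF2A1 in spring and POLR3D and TAF1C in summer lost their calls; the causes were not tested. MED4 lost its call with both voom fits in both seasons (0.82 to 0.99) and with median-of-ratios scaling in spring (0.98), and SUPT20H with median-of-ratios scaling in spring and summer (0.98 and 1). The other calls lost by scaling were GTF2A1 in spring with median-of-ratios scaling (0.99), TAF7 in spring with voom and a median-of-ratios library size (0.88), and, with quantile normalization, GTF2F1 in spring (-0.78) and MED7, TAF1C and POLR3D in summer (-0.75, -0.99 and -0.90). Low counts limit SUPT4H1, POLR3F and GTF3C4, for which no change between stages could be detected at this depth with or without the 3 libraries, and TAF4B, which was not tested.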
